A study of Mus musculus with 12 samples.

Results

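The 9 transcription factors that divide the embryonic jaw into regions (Lhx6, Lhx8, Barx1, Gsc, Hand1, Hand2, Msx1, Msx2 and Pitx1) were followed in RNA of mouse embryos whose neural crest carried mutations of Eftud2, which encodes a spliceosomal GTPase. They were chosen by name, for their known roles in the pharyngeal arches and with earlier results of these data known, and make up 9 of the 24421 gene rows of the count table. RNA of 12 libraries was sequenced, 3 for each of 4 groups of strain C57Bl/6. The groups were heterozygous (Eftud2+/-) embryos, which the labels call controls, and homozygous (Eftud2-/-) embryos, each at embryonic day 9.0 (E9.0) and E9.5, with no treatment. No wild-type library was analysed here, so both genotypes carried the mutation. The design text places it in neural crest cells; the Cre driver, the somite numbers and the number of embryos in a library are not given in the labels. The labels disagreed on the tissue, naming neural crest cells, cranial nerve ganglia and heads. The defining genes of migrating crest (10 of 10) and of cranial ganglia (13 of 13) were detected in every library, beside heart, epithelial and endothelial genes, so genes of several cell types were present.

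The jaws form from the first pharyngeal arch, whose mesenchyme comes from cranial neural crest. Signals from the surrounding epithelium give that mesenchyme its position: FGF8 from the oral and proximal epithelium induces Lhx6, Lhx8, Barx1 and Pitx1, BMP4 from the distal epithelium induces Msx1, Msx2 and the Hand genes, and endothelin-1 acts on the lower part of the arch through Dlx5 and Dlx6 to turn on Hand2. Dlx1 and Dlx2 are expressed along the whole arch, whereas Dlx5 and Dlx6 mark its lower part. These factors are known from mouse mutants with cleft palate, missing teeth or small jaws, and most of them also work in other tissues, such as the heart (Hand1, Hand2), the oral epithelium (Pitx1) or the forebrain (Lhx6, Lhx8).

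At E9.5, 3 of the 9 genes were lower in homozygous than in heterozygous embryos (edgeR, adjusted p under 0.05), while 1.89% of all genes tested passed and 0.702% passed as lower. Lhx8, a LIM homeobox gene of the oral mesenchyme, was 8.53-fold lower; it passed the filter on low counts through the heterozygous E9.5 libraries, and without that filter its log2 difference was −3.09 (adjusted p = 3.23e-08, edgeR). Barx1, a homeobox gene of the proximal arch where molars form, was 7.52-fold lower. Msx1, a homeobox gene needed for palate and teeth, was 1.47-fold lower. None of the 9 passed at E9.0, where 0.587% of all genes did, and the E9.5 levels of Hand1, Hand2, Lhx6 and Pitx1 overlapped between the genotypes.

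The libraries held 13914543 to 31172708 counts. Levels are given in CPM, counts scaled to the same library size, where that size was corrected with TMM, a method that balances libraries on genes of steady level. In heterozygous E9.0 replicate 1 the row Rn45s, precursor of ribosomal RNA, held 37.4% of all counts, against 4.4% to 16.2% in the other 11 libraries. Eftud2, the targeted gene, had 275 to 302 CPM in heterozygous and 232 to 236 CPM in homozygous libraries at E9.0, and 248 to 264 against 221 to 226 CPM at E9.5. The genotypes did not overlap at either stage. The log2 difference was −0.29 ± 0.05 (SE; adjusted p = 0.0193) at E9.0 and −0.19 ± 0.05 (adjusted p = 0.0906) at E9.5 in edgeR's quasi-likelihood test. In bulk RNA, fewer cells of a type and less RNA per cell cannot be told apart. Nothing in the labels says whether replicates came from separate embryos or pools, so p-values measure the spread between these libraries, which may be technical.

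The stretches just before the transcription start of the 3 genes that were lower at E9.5, and of Hand2, which did not pass the test, are shown because they are the sequence nearest to the start of each gene in which promoter motifs can be compared. They come from RefSeq (GRCm38.p6; 7 of the 9 genes had an entry), read 5′ to 3′ on the strand of the gene, and were shortened where an annotated exon began inside the window. Capitals mark TAATTA (the core bound by many homeodomain proteins), CATCTG or its complement CAGATG (an E-box bound by Hand proteins), and CCAAT or its complement ATTGG (the CCAAT box). Both strands were searched, and no motif overlapped another in these windows. Lhx8 lies on the minus strand and the stretch is chr3:154330660-154330810. Barx1 is on the plus strand at chr13:48662786-48662997. Msx1 is on the minus strand at chr5:37824586-37824835, and Hand2 on the plus strand at chr8:57320733-57320982.
Lhx8: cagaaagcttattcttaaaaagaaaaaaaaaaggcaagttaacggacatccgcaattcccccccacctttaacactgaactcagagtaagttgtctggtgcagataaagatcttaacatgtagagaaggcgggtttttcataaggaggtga
Barx1: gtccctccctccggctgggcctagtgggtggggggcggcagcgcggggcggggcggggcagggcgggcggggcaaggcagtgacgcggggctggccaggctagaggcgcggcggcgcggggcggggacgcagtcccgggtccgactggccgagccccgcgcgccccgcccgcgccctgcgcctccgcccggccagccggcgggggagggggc
Msx1: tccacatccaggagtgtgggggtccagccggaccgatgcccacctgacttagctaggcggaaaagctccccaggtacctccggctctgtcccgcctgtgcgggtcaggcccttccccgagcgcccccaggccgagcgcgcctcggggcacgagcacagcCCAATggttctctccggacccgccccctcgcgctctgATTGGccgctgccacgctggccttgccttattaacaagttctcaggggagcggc
Hand2: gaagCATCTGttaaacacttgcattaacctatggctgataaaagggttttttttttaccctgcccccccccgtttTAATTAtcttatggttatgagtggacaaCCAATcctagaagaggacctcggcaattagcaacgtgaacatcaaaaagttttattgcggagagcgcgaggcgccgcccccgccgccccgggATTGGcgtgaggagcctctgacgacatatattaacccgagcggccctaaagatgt
The Lhx8 and Barx1 windows held none of the 3 motifs. The Msx1 window held a pair of CCAAT boxes, 91 and 54 bases before the start. The Hand2 window held CATCTG at 246, TAATTA at 175 and CCAAT boxes at 147 and 55 bases before the start. Over 32851 promoter windows of 250 bases, TAATTA was found in 4.84%, the E-box in 14.4% and the CCAAT box in 33.8%. The full window of Barx1 was 85.6% G and C, above 99.9% of all windows (median 52.4%), against 46% for Lhx8, 49.2% for Hand2 and 68% for Msx1. A match of letters is a description and does not show binding.

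The genes lie on 7 chromosomes of GRCm38 and are annotated by GENCODE as protein coding. Lhx8 (ENSMUSG00000096225.7) spans chr3:154306294-154330659, Barx1 (ENSMUSG00000021381.4) chr13:48662998-48666507 and Msx1 (ENSMUSG00000048450.10) chr5:37820485-37824583. Lhx6 spans chr2:36081953-36105408, Gsc chr12:104471209-104473330, Hand1 chr11:57828705-57832818 and Hand2 chr8:57320983-57324633. Msx2 spans chr13:53466884-53473074 and Pitx1 chr13:55825051-55836192, so that Barx1, Msx2 and Pitx1 share a chromosome. Counts are given per gene, not per exon or transcript. Hand2 overlaps the antisense gene Hand2os1 and Pitx1 overlaps Gm47071 on the opposite strand, and Lhx6 and Pitx1 overlap Gm27953 and Gm28760 on the same strand. None of these overlapping genes has a row in the count table. The strand setting of the counting is not given in the sources used here, so reads of these neighbours may be among the counts of Hand2, Pitx1 and Lhx6.

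Per kilobase of exon, Msx1 had the highest level of the 9 genes in heterozygous embryos at E9.5, 15.4 ± 1.03 CPM per kb (SD, n = 3). Barx1 (10.1 ± 3.62) and Hand2 (10.1 ± 2.83) came next on the same per-length scale and lay within one another's spread. Msx2 (6.56 ± 0.658), Pitx1 (4.96 ± 0.652) and Hand1 (3.31 ± 0.315) followed; Msx2 lay within the SDs of Barx1, and Pitx1 and Hand1 were each below the gene before by more than the SDs. Lhx8 (0.92 ± 0.132), Gsc (0.593 ± 0.194) and Lhx6 (0.346 ± 0.103 CPM per kb) were the lowest, and Gsc was within its SDs of Lhx6. In homozygous embryos at E9.5 the order was another. Hand2 (10.6 ± 0.787) and Msx1 (10.5 ± 0.282 CPM per kb) lay together at the top and Pitx1 (5.74 ± 1.33) and Msx2 (4.81 ± 0.447) overlapped below them. Barx1, at 1.33 ± 0.176, was below Hand1 (3.21 ± 0.293), and Lhx8 was last at 0.104 ± 0.037 CPM per kb. At E9.0, Msx1 was highest in both genotypes (10.2 ± 0.498 in heterozygous, 11 ± 0.385 CPM per kb in homozygous embryos) and Lhx8 lowest (0.0997 ± 0.0238 and 0.175 ± 0.0569).

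**Figure D1:**
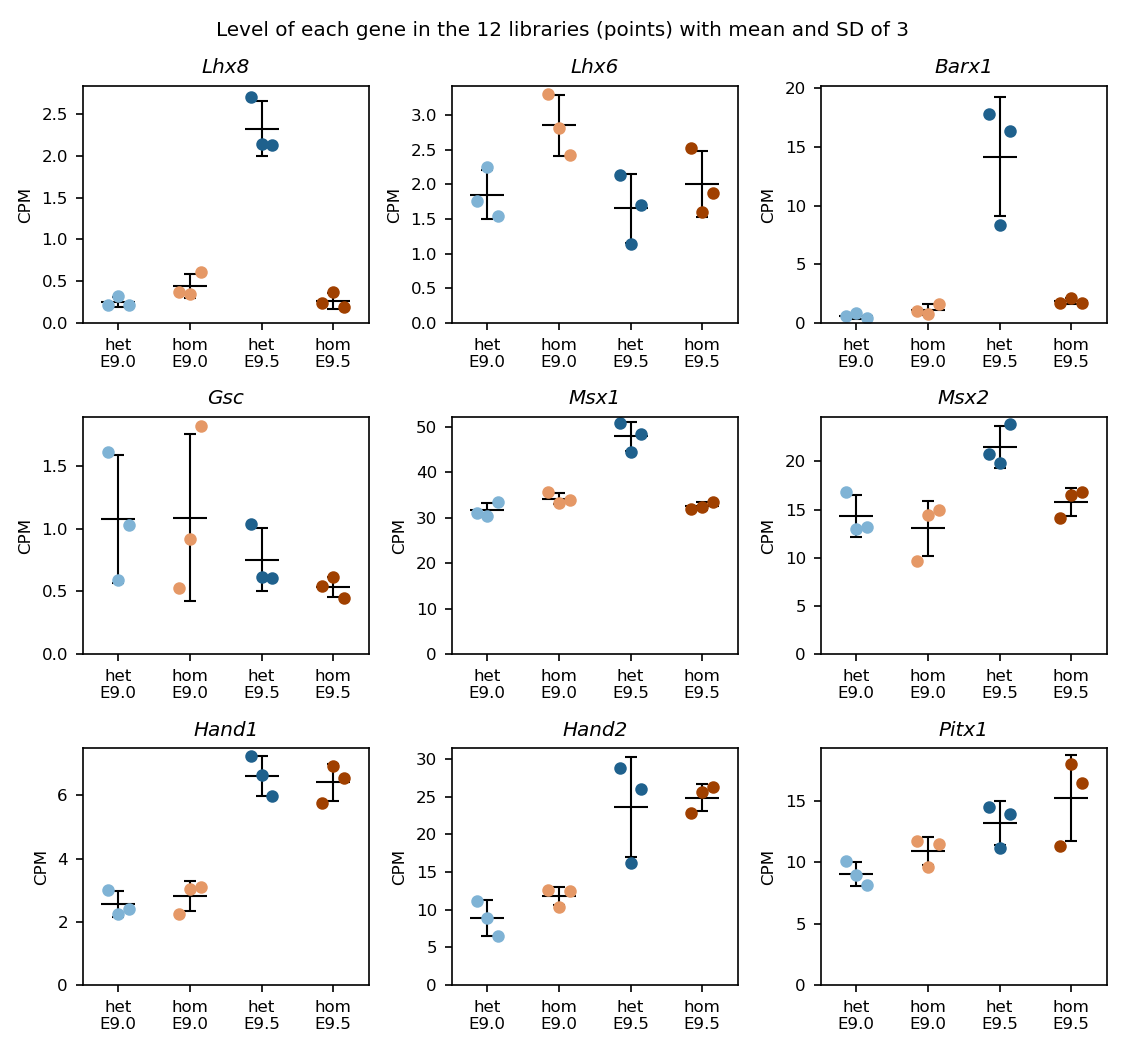
Level of each of the 9 genes in CPM (linear axes from 0, a different range per gene), each point 1 library, by genotype (het, heterozygous; hom, homozygous) and stage, with the mean and SD of the 3 libraries of a group. The homozygous E9.5 libraries of Lhx8 (0.188 to 0.368 CPM) and Barx1 (1.72 to 2.15 CPM) lie far below the heterozygous libraries of that stage, those of Msx1 lie below them by less, and those of Hand1 and Hand2 overlap them.

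Lhx6 and Lhx8 encode related LIM homeodomain factors of the oral mesenchyme that act together in palate and tooth formation. Lhx8 had 0.22, 0.322 and 0.215 CPM in heterozygous replicates 1, 2 and 3 at E9.0 and 0.376, 0.344 and 0.608 CPM in their homozygous counterparts. At E9.5 it had 2.71, 2.14 and 2.13 CPM in heterozygous and 0.236, 0.368 and 0.188 CPM in homozygous libraries. The heterozygous E9.5 libraries stood alone, and every homozygous E9.5 library lay in or below the range of the E9.0 libraries of its genotype. The E9.5 difference was −3.09 ± 0.28 on the log2 scale (95% interval −3.69 to −2.49; adjusted p = 3.42e-05, edgeR). It rests on 222 counts in 3 heterozygous and 24 in 3 homozygous libraries, whose ratio was 8.65-fold with an interval of 5.67 to 13.8 for counting error only. Lhx8 reached the level of the low-count filter in 4 of 12 libraries, 3 of them heterozygous at E9.5, and so was tested because of the group in which it was high. At E9.0 the libraries held 3 to 9 counts of Lhx8; the genotypes did not overlap and the log2 difference of 0.79 ± 0.45 did not pass the test (adjusted p = 0.479, edgeR).

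Lhx6 was at 1.76, 2.25 and 1.55 CPM in heterozygous and 3.31, 2.81 and 2.43 CPM in homozygous libraries at E9.0. At E9.5 the values were 2.13, 1.14 and 1.7 CPM against 2.53, 1.6 and 1.88 CPM. The genotypes were apart at E9.0, where homozygous libraries were higher, and overlapped at E9.5. The log2 difference was 0.62 ± 0.27 (adjusted p = 0.337, edgeR) at E9.0 and 0.27 ± 0.24 (adjusted p = 0.739, edgeR) at E9.5, with a 95% interval of −0.25 to 0.79 that does not reach the decrease of Lhx8.

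Barx1 marks the proximal mesenchyme of the arch and later the molar and the stomach. At E9.0 it was low, at 0.587, 0.858 and 0.387 CPM in heterozygous and 1.05, 0.745 and 1.62 CPM in homozygous embryos. At E9.5 heterozygous libraries held 17.8, 8.36 and 16.3 CPM and homozygous ones 1.72, 2.15 and 1.73 CPM. Even the lowest heterozygous E9.5 library, replicate 2, lay above all homozygous libraries, and the E9.0 groups overlapped. The E9.5 difference was −2.91 ± 0.28 on the log2 scale (95% interval −3.51 to −2.32; adjusted p = 0.000146, edgeR), from 1327 counts against 167. The ratio of these summed counts was 7.43-fold, with a counting interval of 6.32 to 8.78. The E9.0 difference of 0.91 ± 0.52 did not pass the test (adjusted p = 0.473, edgeR). Heterozygous E9.5 replicate 2 was the lowest of its group for 6 of the 9 genes (Lhx6, Barx1, Hand2, Msx1, Msx2 and Pitx1) and for the summed level of 26 facial mesenchyme factors (512 CPM against 715 and 737) and the highest for the sum of 13 heart muscle genes (6500 CPM against 4200 and 4050). Without it the E9.5 difference of Barx1 was −3.18 (adjusted p = 2.03e-07, edgeR).

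Gsc, a homeobox gene of the lower and caudal arch that shapes jaw and ear bones, stayed between 0.45 and 1.82 CPM. It had 1.61, 0.59 and 1.03 CPM in heterozygous and 0.526, 0.916 and 1.82 CPM in homozygous embryos at E9.0, and 1.04, 0.616 and 0.604 against 0.54, 0.614 and 0.45 CPM at E9.5. The groups overlapped at both stages. The log2 difference was 0.07 ± 0.42 (adjusted p = 0.961, edgeR) at E9.0 and −0.49 ± 0.41 (adjusted p = 0.707, edgeR) at E9.5. The spread of Gsc was the widest of the 9 genes at E9.0, 47.6% of the mean in heterozygous and 61.1% in homozygous libraries; at E9.5 it was 32.7% and 15.4%.

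Msx1 and Msx2 encode homeodomain repressors that respond to BMP in the distal arch, the dorsal neural tube and other tissues. Msx1 had 31, 30.4 and 33.3 CPM in heterozygous and 35.5, 33.2 and 33.8 CPM in homozygous embryos at E9.0. At E9.5 heterozygous libraries rose to 50.8, 44.5 and 48.3 CPM and homozygous ones held 31.8, 32.3 and 33.5 CPM. The homozygous E9.5 values lay in the range of E9.0, and the E9.5 genotypes were apart. The E9.5 difference was −0.56 ± 0.07 (95% interval −0.7 to −0.41; adjusted p = 0.000495, edgeR), and that at E9.0 0.11 ± 0.07 (adjusted p = 0.514, edgeR). Scaled to total counts alone, the E9.5 difference of Msx1 kept its size at −0.56 but not its call (adjusted p = 0.0632, edgeR).

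Msx2 had 16.8, 13 and 13.2 CPM in heterozygous and 9.7, 14.4 and 15 CPM in homozygous embryos at E9.0. At E9.5 the values were 20.8, 19.8 and 23.9 against 14.1, 16.5 and 16.8 CPM. The groups overlapped at E9.0 and were apart at E9.5, with homozygous libraries lower. The E9.5 difference of −0.45 ± 0.13 missed the threshold (adjusted p = 0.121, edgeR). It passed at −0.44 (adjusted p = 0.0457, edgeR) when the fit held the 6 E9.5 libraries alone. Markers of the dorsal neural tube, where Msx1 and Msx2 are also expressed, were lower in homozygous embryos for 9 of 9 genes at E9.0 (median −0.25; 5 of 9 when scaled to total counts alone) and for 9 of 9 at E9.5 (median −0.32). Of these, 2 passed at E9.5: Wnt1, a signal of the dorsal midline, at −0.93 ± 0.17 (adjusted p = 0.00914, edgeR) and Pax7, a dorsal progenitor factor, at −0.84 ± 0.17 (adjusted p = 0.0194, edgeR). Their summed level at E9.5 was 192 to 277 CPM in heterozygous and 184 to 218 CPM in homozygous libraries; their part in the Msx values was not tested.

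Hand1 and Hand2 encode basic helix-loop-helix factors of the distal arch tip, downstream of endothelin-1 and BMP, and of the heart. Hand2 had 11.2, 8.96 and 6.45 CPM in heterozygous and 12.6, 10.4 and 12.5 CPM in homozygous embryos at E9.0. At E9.5 it had 28.8, 16.2 and 26 CPM against 22.8, 25.6 and 26.3 CPM. The genotypes overlapped at each stage, and both stood higher at E9.5. The E9.5 difference was 0.07 ± 0.2 (95% interval −0.36 to 0.5; adjusted p = 0.935, edgeR) and that at E9.0 0.44 ± 0.24 (adjusted p = 0.451, edgeR).

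Hand1 was at 3.01, 2.25 and 2.41 CPM in heterozygous and 2.26, 3.04 and 3.11 CPM in homozygous embryos at E9.0, and at 7.23, 6.63 and 5.97 against 5.77, 6.91 and 6.56 CPM at E9.5. The groups overlapped at both stages. The E9.5 difference was −0.04 ± 0.14 (95% interval −0.33 to 0.25; adjusted p = 0.946, edgeR) and that at E9.0 0.16 ± 0.19 (adjusted p = 0.761, edgeR). The E9.5 intervals of Hand1 and Hand2 exclude a change as large as that of Barx1 or Lhx8. Heart muscle genes, of the organ that also expresses Hand1 and Hand2, summed to 118 to 789 CPM at E9.0 and 4050 to 7050 CPM at E9.5. All 13 were higher in homozygous embryos at both stages (median 0.46 at E9.0 and 0.29 at E9.5). At E9.5 the call was made for Nkx2-5, a cardiac homeobox gene, alone among the 13 (0.62 ± 0.15, adjusted p = 0.0444, edgeR). The list had 1 gene, Nppa, at 0 in each of homozygous E9.0 replicates 2 and 3 and none at 0 in the other libraries, and the part of heart RNA in the Hand values was not tested. A list of 10 limb and trunk genes summed to 0.473 to 14.4 CPM.

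Pitx1 encodes a homeodomain factor of the oral epithelium and the proximal mesenchyme, needed for the mandible and hindlimb. It had 10.1, 8.96 and 8.13 CPM in heterozygous and 11.7, 9.62 and 11.5 CPM in homozygous embryos at E9.0, and 14.5, 11.2 and 13.9 against 11.3, 18 and 16.5 CPM at E9.5. The genotypes overlapped at both stages. The log2 difference was 0.28 ± 0.17 (adjusted p = 0.501, edgeR) at E9.0 and 0.21 ± 0.15 (95% interval −0.11 to 0.53; adjusted p = 0.621, edgeR) at E9.5. Markers of surface epithelium summed to 348 to 399 CPM in heterozygous and 403 to 511 CPM in homozygous embryos at E9.5, with 9 of 10 higher. Among them Epcam, an epithelial adhesion gene, was higher by 0.31 ± 0.07 (adjusted p = 0.04, edgeR); with total counts alone it did not pass (adjusted p = 0.61, edgeR). The part of epithelial RNA in the Pitx1 values was not tested.

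Across the 9 genes, 3 passed the test at E9.5, all lower in homozygous embryos. The median log2 difference of the 9 genes was −0.45, and that of all genes tested was 0. The groups did not overlap for 4 of the 9 genes (Lhx8, Barx1, Msx1 and Msx2), against 20.9% of all genes. At E9.0, 0 of 9 passed edgeR's test, as with DESeq2 and limma-voom, and 1 of 9 (Lhx6) had an unadjusted p under 0.05, against 1969 of the 14810 genes tested, a similar share. There 8 of the 9 genes were higher and 1, Msx2, lower in homozygous embryos, with a median of 0.28; with total counts alone, which moved the median of all genes to 0.19, all 9 were higher, Msx2 included. Lhx6 and Lhx8 did not overlap between the genotypes at E9.0, 2 of 9 genes against 17.3% of all genes.

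**Figure D2:**
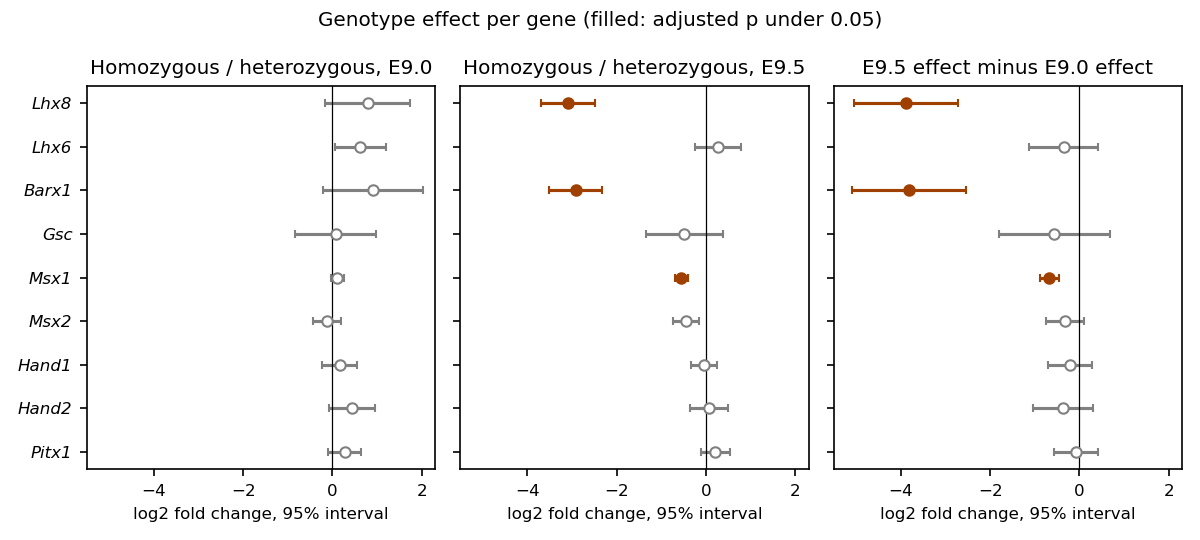
Log2 difference of homozygous from heterozygous embryos for each of the 9 genes at E9.0 and at E9.5, and the E9.5 effect minus the E9.0 effect, from edgeR, with bars for the 95% interval, a line at 0, and filled points where the adjusted p was under 0.05. At E9.5 the intervals of Lhx8 (−3.69 to −2.49) and Barx1 (−3.51 to −2.32) lie far from 0, whereas those of Hand1, Hand2, Lhx6 and Pitx1 include it.

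Whether the genotype effect changed between the stages was tested as an interaction of genotype and stage. It passed for 3 of the 9 genes. It was negative for all 9 under TMM (median −0.37), RLE (median −0.37) and total-count scaling (median −0.59, where the median of all genes was −0.19), but Pitx1 and Gsc changed sign when some libraries were left out. Of all genes tested, 0.0675% passed and 0.0608% passed with a lower effect at E9.5. Lhx8 had a difference of −3.88 ± 0.55 (adjusted p = 0.0181, edgeR), Barx1 of −3.82 ± 0.6 (adjusted p = 0.0301) and Msx1 of −0.67 ± 0.1 (adjusted p = 0.0198). The other 6 ranged from −0.56 for Gsc to −0.07 for Pitx1. These calls depended on single libraries. Without homozygous E9.5 replicate 3 none of the 3 passed (Lhx8 −3.7, Barx1 −3.76, Msx1 −0.69; adjusted p = 0.0626 to 0.112, edgeR). With heterozygous E9.0 replicate 2, homozygous E9.5 replicate 1 or homozygous E9.5 replicate 2 left out in turn, only Lhx8 passed, and without homozygous E9.0 replicate 3 only Msx1 passed. Msx1 also lost its call without heterozygous E9.5 replicate 1 (−0.62, adjusted p = 0.061, edgeR) and with total counts alone (−0.87, adjusted p = 0.136). Barx1 kept its call in 3 of the 12 fits that left out a library, namely those without a heterozygous E9.5 library, and lost it with limma-voom (−3.71, adjusted p = 0.325) and without a filter on low counts (−3.8, adjusted p = 0.0946).

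Between E9.0 and E9.5, 7 of the 9 genes rose in heterozygous and 3 in homozygous embryos. Barx1 rose most in heterozygous embryos, by 4.55 ± 0.36 on the log2 scale (adjusted p = 6.32e-07, edgeR), from 33 to 1327 counts summed over 3 libraries. Lhx8 rose by 3.18 ± 0.32 (adjusted p = 2.04e-06), Hand2 by 1.44 ± 0.22 (adjusted p = 0.000336) and Hand1 by 1.39 ± 0.16 (adjusted p = 8.03e-06, edgeR). Msx1 (0.6 ± 0.07), Msx2 (0.59 ± 0.14) and Pitx1 (0.55 ± 0.16) rose less. Lhx6 (−0.16 ± 0.26) and Gsc (−0.46 ± 0.4) did not pass. The stage comparison moved many genes: 35.2% of all genes passed in heterozygous embryos and 19.2% passed as higher. For 7 of the 9 genes the stages did not overlap, against 47.7% of all genes.

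In homozygous embryos Hand1, Hand2 and Pitx1 passed: Hand1 rose by 1.18 ± 0.16 (adjusted p = 4.02e-05, edgeR), Hand2 by 1.08 ± 0.22 (adjusted p = 0.00217) and Pitx1 by 0.48 ± 0.16 (adjusted p = 0.0286). Lhx8 had a change of −0.7 ± 0.41 (adjusted p = 0.207), Barx1 of 0.73 ± 0.4 (adjusted p = 0.171), Msx1 of −0.07 ± 0.07 (adjusted p = 0.474) and Msx2 of 0.27 ± 0.15 (adjusted p = 0.164). Lhx6 (−0.51, adjusted p = 0.13) and Gsc (−1.02 ± 0.43, adjusted p = 0.0794) did not pass either. Among all genes 35.4% passed in homozygous embryos, 19.6% as higher, and the stages did not overlap for 48.2% of genes against 3 of the 9 (Barx1, Hand1 and Hand2). The call of Pitx1 in homozygous embryos was lost in 4 of 6 fits that left out a library (adjusted p up to 0.129) and with limma-voom (adjusted p = 0.0631); it was lost without homozygous E9.0 replicate 2 or 3 and without homozygous E9.5 replicate 2 or 3. In heterozygous embryos it was lost without E9.0 replicate 3 (adjusted p = 0.0701) or E9.5 replicate 1 (adjusted p = 0.0592). The heart list rose in all 13 genes with stage in both genotypes (median 3.82 in heterozygous and 3.68 in homozygous embryos), and its part in the stage change of Hand1 and Hand2 was not tested.

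**Figure D3:**
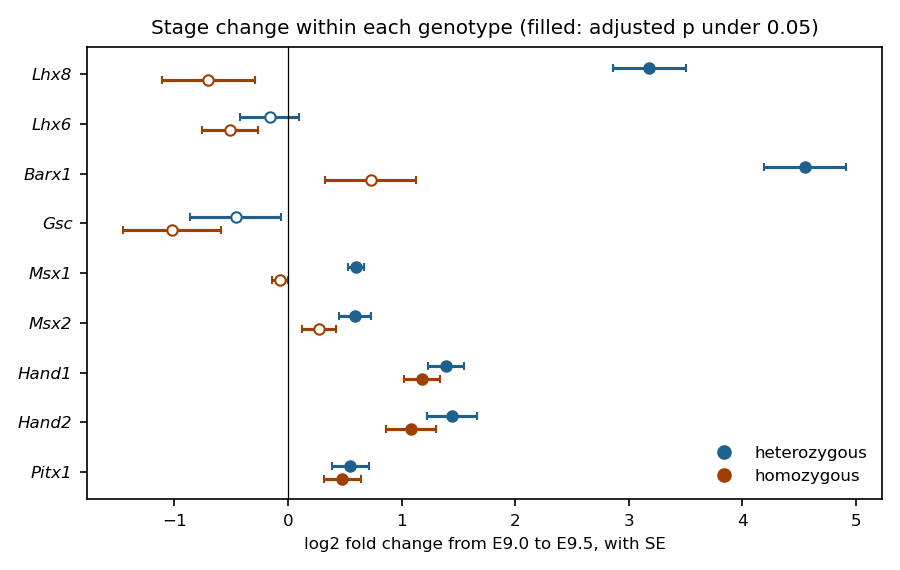
Log2 change from E9.0 to E9.5 for each of the 9 genes in heterozygous and in homozygous embryos, from edgeR, with bars for the SE, a line at 0, and filled points where the adjusted p was under 0.05. Barx1 and Lhx8 rose in heterozygous embryos by 4.55 and 3.18 and have values of 0.73 and −0.7 in homozygous ones, while Hand1 and Hand2 rose in both genotypes.

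Ratios of counts within a library do not depend on scaling between libraries. The pairs were picked after the values had been seen and are given as a description. Lhx8 counts were 1.27, 1.87 and 1.25 times those of Lhx6 in heterozygous E9.5 libraries and 0.0933, 0.231 and 0.1 times in homozygous ones. The counts of Barx1 were 0.616, 0.517 and 0.626 times those of Hand2 in heterozygous and 0.0756, 0.084 and 0.0657 times in homozygous libraries at that stage. In the 1 library in which Barx1 was low, heterozygous replicate 2, Hand2 was low as well, so that this ratio varied less than either gene alone. Barx1 to Pitx1 had a mean of 1.05 in heterozygous and 0.126 in homozygous E9.5 libraries, without overlap. The ratios of Msx1 to Msx2 (2.23 ± 0.213 and 2.07 ± 0.162), Hand2 to Hand1 (3.6 ± 1.02 and 3.88 ± 0.159) and Lhx8 to Barx1 (0.18 and 0.139) overlapped between the genotypes at E9.5. At E9.0 all 6 ratios overlapped.

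**Figure D4:**
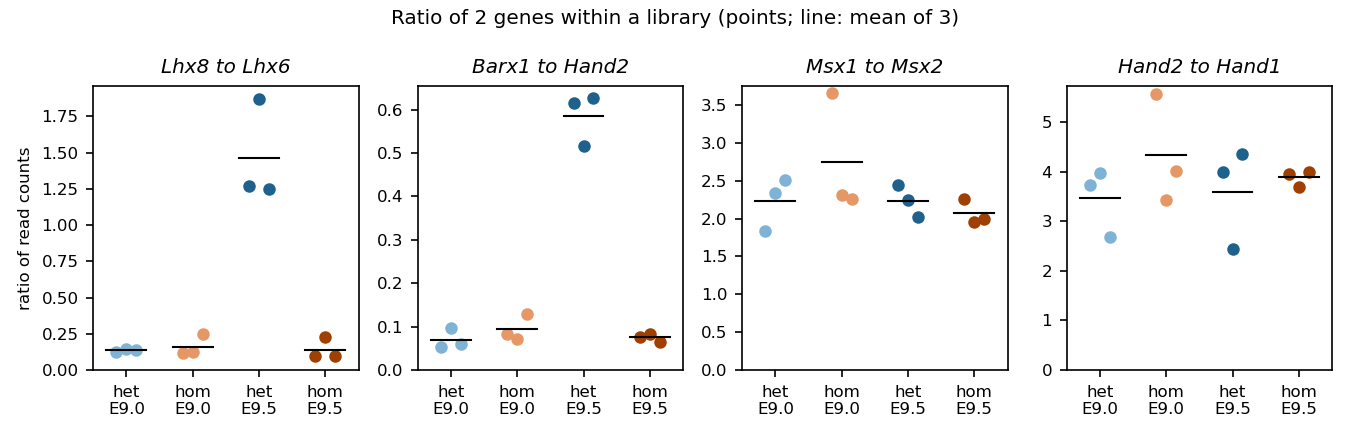
Ratio of read counts within each library (linear axes from 0) for 4 gene pairs, by genotype (het, heterozygous; hom, homozygous) and stage, each point 1 library and each line the mean of 3. At E9.5 the homozygous libraries lie below the heterozygous ones for Lhx8 to Lhx6 and Barx1 to Hand2, and the ratios of Msx1 to Msx2 and Hand2 to Hand1 overlap.

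Of the Dlx genes, which pattern the arches, 5 of 6 were tested and all 5 were lower in homozygous embryos at E9.0 (median −0.31; 4 of 5 with total counts alone) and at E9.5 (median −1.1). At E9.0 0 of 5 passed edgeR's test, and at E9.5 3 passed. Dlx1 had 9.18, 6.25 and 8.28 CPM in heterozygous and 1.15, 0.921 and 0.675 CPM in homozygous E9.5 libraries, a difference of −3.09 ± 0.21 (adjusted p = 1.38e-06, edgeR). Dlx2 had 12.1, 8.36 and 11.2 CPM against 3, 3.47 and 2.66 CPM, or −1.78 ± 0.19 (adjusted p = 0.000195, edgeR). Dlx6 had 4.54, 4.17 and 3.66 CPM against 1.62, 2.64 and 1.46 CPM, or −1.1 ± 0.22 (adjusted p = 0.0147, edgeR). None of the 3 genes overlapped between the genotypes at E9.5. Dlx5 (−0.35 ± 0.19, adjusted p = 0.486) and Dlx3 (−0.49 ± 0.18, adjusted p = 0.248) did not pass. Dlx1 also passed the interaction at −2.72 ± 0.32 (adjusted p = 0.00349, edgeR).

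Of 33 listed genes of the endothelin, FGF and BMP pathways, which include targets and feedback genes, 4 passed at E9.5, where 1.89% of all genes did. Of 6 genes of the endothelin pathway, 2 passed as higher in homozygous embryos: Mef2c, a transcription factor downstream of the receptor, at 0.35 ± 0.08 (adjusted p = 0.04, edgeR) and Ece1, the enzyme that activates endothelin, at 0.3 ± 0.07 (adjusted p = 0.0424). Of 13 FGF pathway genes 1 passed, Fgf18, lower by −0.87 ± 0.18 (adjusted p = 0.0205). Of 14 BMP pathway genes 1 passed, Bmp2, higher by 0.57 ± 0.12 (adjusted p = 0.0218). With total counts alone Mef2c, Ece1 and Bmp2 did not pass. None of these 33 genes passed at E9.0. The ligands and receptor, named for their role and not for their change, were Edn1 (0.33 ± 0.15, adjusted p = 0.345), Ednra (0.15 ± 0.09, adjusted p = 0.55), Fgf8 (−0.41 ± 0.14, adjusted p = 0.163) and Bmp4 (0.14 ± 0.14, adjusted p = 0.751) at E9.5. They had 4.66, 18.9, 13.1 and 15.4 CPM in heterozygous embryos and 5.87, 20.9, 9.86 and 17 CPM in homozygous ones, in that order, as group means.

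Of 25 other facial and arch mesenchyme factors tested, 12 were higher and 13 lower in homozygous embryos at E9.5; 1 passed as higher and 2 as lower, the latter being Tfap2b, an AP-2 factor of crest and facial mesenchyme (−1.15 ± 0.1, adjusted p = 1.99e-05, edgeR), and Alx1, of the frontonasal mesenchyme (−1.07 ± 0.23, adjusted p = 0.0333). The median of this list was −0.02, and its sum was 512 to 737 CPM in heterozygous and 568 to 662 CPM in homozygous E9.5 libraries. At E9.0 Tfap2b alone of this list passed (−0.78 ± 0.1, adjusted p = 0.000773). With total counts alone Alx1 (adjusted p = 0.0625, edgeR) did not pass at E9.5, nor Tfap2b (adjusted p = 0.108) at E9.0. Of 10 migrating crest genes, 8 were lower in homozygous embryos at each stage (6 at E9.0 with total counts alone); 2 passed at E9.0 (1 with total counts alone) and 6 at E9.5 (medians −0.28 and −0.72). Tfap2b, counted above among the facial factors, is 1 of them at each stage. Those at E9.5 included Sox10 (−1.14 ± 0.21, adjusted p = 0.0148) and Foxd3 (−1.8 ± 0.34, adjusted p = 0.0148). Their summed level at E9.5 was 231 to 255 CPM in heterozygous and 218 to 247 CPM in homozygous libraries; the part of crest cell number in the values of Lhx8, Barx1 and Msx1 was not tested.

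Markers of other cell types were counted likewise. Of 12 endothelial genes, 12 were higher in homozygous embryos at E9.5 and 8 passed (median 0.63; 4 with total counts alone), with sums of 193 to 274 CPM in heterozygous and 347 to 390 CPM in homozygous libraries. Of 13 cranial ganglion genes, 6 were higher and 7 lower at E9.5 (median −0.09). Of these, 1 passed as higher and 2 as lower, or 0 and 3 with total counts alone. The 2 lower ones were the neuronal genes Pou4f1 (−0.95 ± 0.17, adjusted p = 0.0107, edgeR) and Tubb3 (−0.69 ± 0.07, adjusted p = 0.000172). Of 9 ventral forebrain genes, where Lhx6 and Lhx8 are also used later, 1 passed as lower at E9.0, and 1 as higher (Rax, 0.76 ± 0.16) and 1 as lower at E9.5; the list summed to 98.7 to 134 CPM in heterozygous and 95.6 to 125 CPM in homozygous libraries. None of 5 genes of the second arch, 5 extraembryonic genes and 2 limb and trunk genes that were tested passed in either genotype comparison. Heterozygous E9.5 replicate 1, the library with the highest Lhx8, Barx1 and Msx1, stood apart on the extraembryonic list, with a sum of 37 CPM against 6.34 to 12.6 CPM in the other 11. Without it the E9.5 differences were −2.96 for Lhx8 (adjusted p = 0.000149, edgeR), −2.71 for Barx1 (adjusted p = 0.000149) and −0.51 for Msx1 (adjusted p = 0.00279). The part of these cell types in the values of the 9 genes was not tested.

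**Figure D5:**
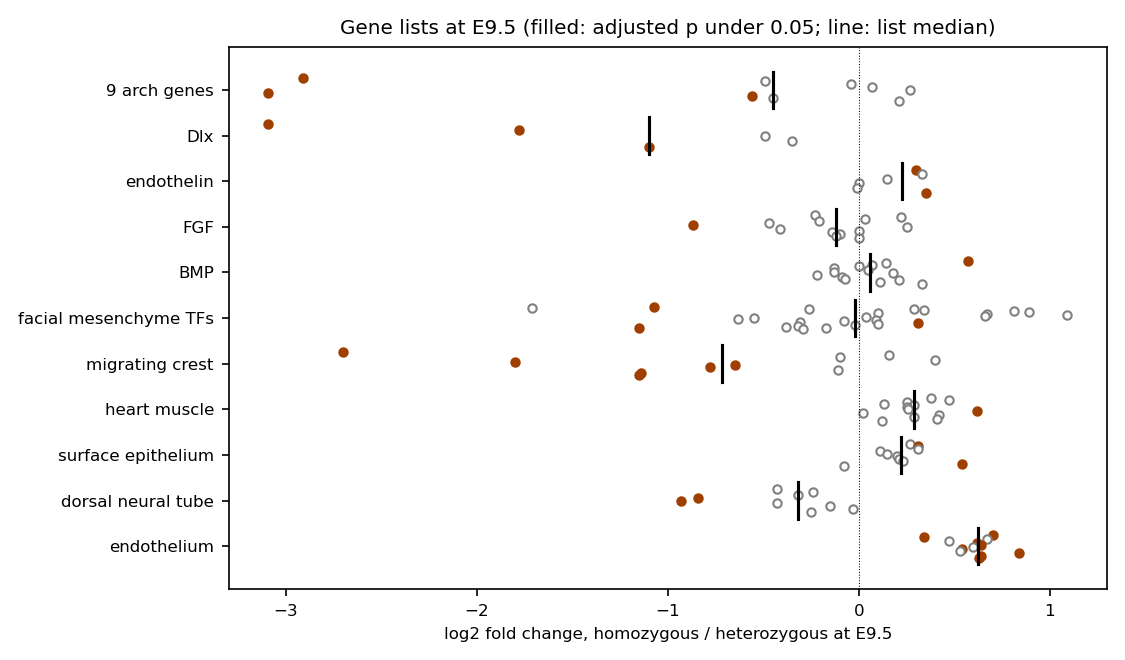
Log2 difference of homozygous from heterozygous embryos at E9.5 for the 9 genes and the genes of 10 pathway and cell type lists, each point 1 gene, filled where it passed the test, with a line at each list's median. Lhx8 (−3.09), Dlx1 (−3.09) and Barx1 (−2.91) have the lowest values, while the 12 endothelial and 13 heart genes lie above 0.

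The genes whose pattern over the 12 libraries was most like that of each called gene were taken by the mean absolute difference of centred log2 CPM, among 13087 candidates. For Lhx8 they were Dlx6os1, the noncoding transcript of the Dlx5 and Dlx6 locus, at 0.5, and Dlx1 at 0.59. Dlx6os1 had group means of 1.37 and 1.5 CPM at E9.0 and 6.55 against 2.24 CPM at E9.5 (−1.54, adjusted p = 0.00402, edgeR). For Barx1, Epha3, an ephrin receptor gene, was at 0.75, more distant than the genes named for Lhx8 and Msx1. Epha3 differed by −0.89 at E9.5 (adjusted p = 0.00143, edgeR). For Msx1, the nearest genes were Hist2h2ab and Mrpl53, both at 0.11, and they differed by −0.23 (adjusted p = 0.195) and −0.3 (adjusted p = 0.0399, edgeR). These likenesses describe the 12 libraries and were chosen from them.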

How the data were processed

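RNA was measured in 12 libraries, 3 in each group of genotype and stage. The authors deposited raw counts per gene, with no normalization, per the file header; the submitters' processing notes name cutadapt, STAR, featureCounts and MultiQC with build mm10, and the versions, annotation and strand setting are not given in the sources used here. All columns matched a sample; 0 were unmapped. From these counts, edgeR 4.0.16 in R 4.3.3 was run with filterByExpr by group (minimum count 10), which kept 14810 genes and left out 9611, and TMM scaling. A quasi-likelihood F test with robust dispersion (coefficient of variation 8.77%) was fitted with a mean for each of 4 groups. P-values were two-sided, adjusted by Benjamini-Hochberg over 14810 genes, and the threshold was 0.05. SE is the log2 difference over the square root of F. Levels are mean ± SD of 3 libraries. An exact permutation test of 3 against 3 libraries cannot go below 0.1, and was not used for calls. DESeq2 1.42.0, limma-voom (limma 3.58.1), other scalings, filters, a replicate block and leaving out each library were alternatives. Total counts ranged from 13914543 to 31172708, where 3 counts are 0.088 to 0.226 CPM; intervals on counts cover counting error only. In simulated E9.5 data with 14810 genes, 92 of 100 genes changed by log2 1 and 99 of 100 changed by log2 2 were recovered, with 5 false calls. The simulation gave every gene the same dispersion and changed only genes with a mean of at least 10 counts. The real spread of the 9 genes at E9.5 differed by gene. It ran from 2.68% of the mean (Msx1, homozygous) to 35.8% (Barx1, heterozygous), so these rates do not give the power for the 9 genes. The 9 genes and the lists were chosen with earlier results of these data known. Named besides them were the list genes past the threshold, the pathway ligands and receptor, Eftud2, and, for each called gene, the 2 genes nearest in centred log2 CPM (prior count 2). Annotation was GENCODE M21 on GRCm38; the promoter sequences were from RefSeq. Protein sequences were not used here, and the results of some list genes and of 1 nearest gene are not reported here.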

Additional observations from a re-analysis of the deposited data

Results flagged for a closer look

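The genotype effect differed between E9.0 and E9.5 in the interaction test for 3 of the 9 genes, where 0.0675% of all genes tested passed. The effect at E9.5 minus that at E9.0 was −3.88 on the log2 scale for Lhx8 (adjusted p = 0.0181, edgeR), −3.82 for Barx1 (adjusted p = 0.0301, edgeR) and −0.67 for Msx1 (adjusted p = 0.0198, edgeR). In each, the homozygous embryos had the lower level in 3 of 3 libraries at E9.5, and no call was made at E9.0. In the 12 fits that left out a library, Lhx8 kept its call in 10 (adjusted p up to 0.0967, edgeR), Msx1 in 7 (up to 0.0917) and Barx1 in 3 (up to 0.238), and Barx1 also lost it with limma-voom (adjusted p = 0.325).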

How the results depend on the processing

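The 45 results of the 9 genes in 5 comparisons were recomputed in 703 alternatives, of which 659 kept direction and side of the threshold, 27 lost the call, 2 gained it and 15 changed sign, the cause not being tested. With total counts as the only scaling, which shifted the median of all genes by 0.19 at E9.0, −0.19 in the interaction, 0.38 with stage in heterozygous and 0.18 with stage in homozygous embryos, Msx2 at E9.0 was 0.09, Lhx6 with stage in heterozygous embryos 0.21 and Msx1 with stage in homozygous embryos 0.1. With each library left out in turn, Gsc ranged from −0.49 to 0.4 and Msx2 from −0.23 to 0.04 at E9.0, Hand1 from −0.11 to 0.03 and Hand2 from −0.14 to 0.24 at E9.5, Pitx1 from −0.2 to 0.11 and Gsc from −0.89 to 0.01 in the interaction, and Lhx6 from −0.39 to 0.06 with stage in heterozygous embryos. The number of the 9 genes called in the interaction ranged from 0 to 3. At E9.5 Lhx8, Barx1 and Msx1 kept their calls in all 6 fits that left out a library. Of all genes, the interaction calls were 10 with edgeR, 76 with DESeq2 and 5 with limma-voom, and the E9.0 calls 87, 216 and 65. At E9.5 they were 280, 448 and 388, and 123 with total counts. With a replicate block the called members were 0 at E9.0, 3 at E9.5, 3 in the interaction, 7 and 3 with stage, as without it. Same-numbered libraries had deviations that correlated by 0.03 to 0.11 at E9.0 and 0.03 to 0.07 at E9.5, and not every library correlated best with its own number, so the numbers were not taken to pair them. The filter on a mean of 50 counts gave no value for Lhx8, Lhx6 and Gsc. Lhx8 had 3 to 9 counts per library at E9.0, and the part of depth in its result there was not tested.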
